A study of Mus musculus with 8 samples.

Results

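The MCP chemokine cluster is a run of 6 CC chemokine genes on mouse chromosome 11, and it was treated here as 1 locus. Its members, Ccl2, Ccl7, Ccl11, Ccl12, Ccl8 and Ccl1 in chromosome order, were listed by name and located in the mm9 build with the GENCODE M1 annotation, which holds 22380 protein-coding genes. All 6 were found. The locus was taken from 50 kb before the first member to 50 kb after the last, chr11:81799073-82043316, a span of 244.2 kb. It held 11 of the 9438 NFATc2 sites of the series, 2 of 15799 H3K4me3 peaks in non-treated (NT) cells, 4 of 14872 after curdlan and 3 of 14878 after curdlan with FK506.

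The series profiled D1 cells, a long-term dendritic cell (DC) line from C57BL/6 mouse spleen, by ChIP-seq. NFATc2 was recovered through a V5 tag at its C terminus, from D1 cells that stably expressed the tagged protein and had received curdlan at 10 μg/ml for 30 min. The mark H3K4me3 was profiled in NT cells, in cells given the same dose of curdlan for 2 h, and in cells given curdlan for 2 h with FK506, whose dose for these libraries is not given in the sources used here. With a single ChIP library and its input in each condition, the spread between replicates is unknown and conditions were compared without a p-value. The sites are those of an introduced, tagged protein in 1 cell line after stimulation, and NFATc2 in NT or FK506-treated cells was not analysed here. The titles of the H3K4me3 libraries name D1 cells and no tag, so sites and mark may not come from the same cells.

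Curdlan is a β-glucan that binds dectin-1 on DCs, and FK506 blocks calcineurin, the phosphatase that releases NFAT proteins into the nucleus. The genes of the MCP cluster encode small secreted proteins that draw leukocytes into inflamed tissue. Ccl2, Ccl7 and Ccl12 encode ligands of CCR2 that recruit monocytes, Ccl11 encodes eotaxin, which recruits eosinophils through CCR3, and mouse Ccl8 and Ccl1 encode ligands of CCR8. H3K4me3, histone H3 trimethylated at lysine K4, is found around the starts of active genes.

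The 5 genes Ccl2, Ccl7, Ccl11, Ccl12 and Ccl8 lie on the plus strand within the first part of the locus. Ccl2 was at chr11:81849073-81850955 and Ccl7 followed at chr11:81859214-81861027. Ccl11 was at chr11:81871325-81876457. Ccl12 was at chr11:81915347-81916902 and Ccl8 at chr11:81928687-81930301. Ccl1 lies apart from them, 59857 bp beyond the end of Ccl8, on the minus strand at chr11:81990159-81993316. The annotation gives Ccl1 in addition a long noncoding transcript that starts at position 82119192. The coding transcripts set its start for the locus bounds, the distances and the printed promoter. Promoter peaks and counts by gene used the starts of all transcripts. Besides the members, Gm11419 and Gm17268 overlapped the span. Gm17268 is antisense to Ccl2 and starts at position 81852064, inside the same H3K4me3 peak as Ccl2, so the mark of these genes cannot be told apart.

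Sequences are shown for the sites and the promoter to which the results below return. N2 and N8 held the most NFATc2 tags of the 11 sites, which were numbered N1 to N11 along the chromosome. N4 lay at the start of Ccl7, N9 held 2 copies of the NFAT core within 100 bp of its summit, and Ccl1 was the member whose H3K4me3 peak was absent from the NT list. Each site is given as the 201 bases centred on its summit, on the plus strand of mm9, and the Ccl1 promoter as the 300 bases from 250 before its start, on the minus strand. Capitals mark the NFAT core GGAAAA or its reverse complement TTTTCC.
N2 (chr11:81836255-81836455): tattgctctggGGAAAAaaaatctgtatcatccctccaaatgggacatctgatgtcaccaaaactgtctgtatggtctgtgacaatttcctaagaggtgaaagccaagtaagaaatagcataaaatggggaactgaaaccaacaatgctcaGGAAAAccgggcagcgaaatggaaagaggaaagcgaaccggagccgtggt
N4 (chr11:81858990-81859190): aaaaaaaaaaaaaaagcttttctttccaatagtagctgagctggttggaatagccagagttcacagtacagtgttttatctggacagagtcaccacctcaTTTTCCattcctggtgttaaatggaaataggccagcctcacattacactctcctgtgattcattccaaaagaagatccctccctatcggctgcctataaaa
N8 (chr11:81914005-81914205): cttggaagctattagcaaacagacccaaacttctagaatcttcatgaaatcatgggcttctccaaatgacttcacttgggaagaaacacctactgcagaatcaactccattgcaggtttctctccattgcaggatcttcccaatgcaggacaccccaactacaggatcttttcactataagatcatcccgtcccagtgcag
N9 (chr11:81934404-81934604): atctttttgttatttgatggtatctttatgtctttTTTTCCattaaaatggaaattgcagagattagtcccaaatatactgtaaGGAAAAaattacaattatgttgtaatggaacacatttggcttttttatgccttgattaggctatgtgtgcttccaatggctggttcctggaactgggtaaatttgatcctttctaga
Ccl1 promoter (chr11:81993267-81993566): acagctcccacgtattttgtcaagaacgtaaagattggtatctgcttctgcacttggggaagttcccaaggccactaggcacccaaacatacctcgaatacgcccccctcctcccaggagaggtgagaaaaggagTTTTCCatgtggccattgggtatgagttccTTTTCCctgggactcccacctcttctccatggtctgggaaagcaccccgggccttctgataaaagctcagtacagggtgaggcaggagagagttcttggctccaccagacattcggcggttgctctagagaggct

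The capitals show that N2, N4 and N9 held GGAAAA, on either strand, with all of its bases within 100 bp of the summit, whereas N8 did not. In N4 the motif lay on the summit itself, at bases 119 to 124 before the start of Ccl7. In N9 the nearer of 2 copies was 11 bp from the summit, and in N2 it was 51 bp away. The peak of N8 held 3 copies, the nearest 381 bp from its summit. Of the 11 sites 3 held the whole of GGAAAA within 100 bp, beside 45.6% of all 9438 NFATc2 sites and 18.0% of the windows of the same length 1 kb to each side of these. N1 had a copy that crossed the edge of the window, its nearest base 99 bp from the summit, and was not counted. Anywhere in their peaks 8 of the 11 sites held it. These peaks ran from 613 bp at N10 to 4040 bp at N2, beside a median of 1063 bp over the list. No share over all peaks is given, so this count has no reference.

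Other motifs were found at fewer sites. The AP-1 motif TGACTCA, read on both strands, was within 100 bp of the summits of N6 and N11, so at 2 of 11 sites beside 16.9% of all sites. GAGGAAGT, a site of the myeloid factor PU.1, was at N1 alone, beside 9.27% of all sites. The NF-kB consensus was at N1 and N6, beside 5.04%. None of the 4 motifs was within 100 bp of the summits of N3, N5, N7, N8 and N10. A match of letters does not show binding of a factor, and a window without a match says only that these letters are not in it.

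NFATc2 sites were dense over the locus. The span held 45.0 summits per Mb, beside 3.66 per Mb over the genome. Among 10545 non-overlapping genome windows of the same length, 14 held 11 summits or more, which is 0.133%, and 65.3% held none. The densest window held 21. The 8 summits of the 238.9 kb around the other large CC chemokine locus of chromosome 11, which holds Ccl3 and Ccl4, gave 33.5 per Mb.

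**Figure D1:**
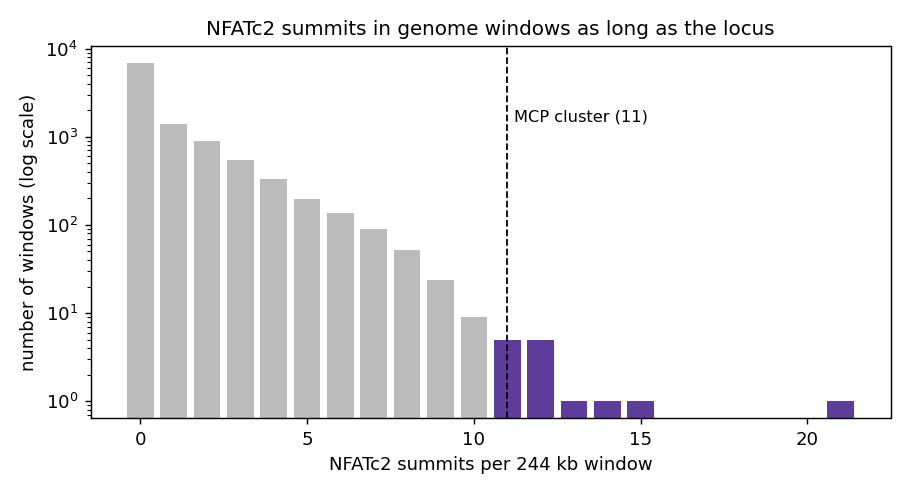
Number of genome windows (log scale) by the number of NFATc2 summits in a 244.2 kb window; the dashed line marks the 11 summits of the MCP cluster and coloured bars the windows with at least as many. The 14 coloured windows reach up to 21 summits, and most windows hold none.

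The sites were unequal, and 2 of them held most of the tags. N2, 12718 bp before the start of Ccl2, had 477 tags and a fold enrichment over the local background of 33.1. N8, 1242 bp before Ccl12, had 462 tags and a fold enrichment of 35.7. Together they held 59.9% of the 1567 tags of the 11 sites. Among all NFATc2 peaks they were at percentiles 99.7 and 99.6 by tags, and their MACS p-values were 1.6e-77 and 5.3e-134. N2 had 118 and N8 had 152 tags per kb of peak, and the other 9 sites lay between 35.7 and 75.3 tags per kb.

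The remaining sites had between 29 and 136 tags. The median over the 11 was 84 tags, beside 63 over the whole list, and 6 of the 11 were above that list median. N1, 6654 bp before N2, had 136 tags, which was 9.46 RPM, tags per 1000000 ChIP tags of the library (exact Poisson 95% interval 7.94 to 11.2). N11 and N4 had 104 and 98 tags, with p-values of 8.5e-20 and 2.0e-17. N10 had the fewest tags, 29, and a p-value of 1.4e-06, near the calling threshold of 1e-05. N3, N6 and N10 had p-values from 1.4e-06 to 3.2e-06, and the other 8 sites were at 1.7e-08 or below. Intervals of this kind cover counting error only.

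Ccl2 and Ccl7, both ligands of CCR2, shared the first 4 sites. N1 and N2 lay 19372 and 12718 bp before Ccl2. N3, with 34 tags, lay between the genes, 8498 bp after the start of Ccl2 and 1643 bp before that of Ccl7. N4 was 124 bp before the start of Ccl7, and was the only summit within 1 kb of a member's start.

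Between Ccl11 and Ccl12, 3 weaker sites preceded N8. N5 had 84 tags and lay 15269 bp after the start of Ccl11, the eotaxin gene, for which N4 was the nearest summit at 12235 bp. N6 and N7 had 41 and 55 tags, 20712 and 13596 bp before Ccl12. N8 followed within 1242 bp of Ccl12.

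The genes for the CCR8 ligands had no strong site close by. N9 had 47 tags and lay 5817 bp after the start of Ccl8. No summit was called over the next 76.9 kb, which hold Ccl1. N10 and N11 lay 18111 and 24091 bp before the start of Ccl1, in an intron of its long noncoding transcript, and the other 9 sites were intergenic.

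Counted by gene, 1 of the 6 members had a summit within 1 kb of a start of any of its transcripts, beside 5.29% of protein-coding genes. Within 10 kb the count was 4 of 6 (Ccl2, Ccl7, Ccl12 and Ccl8), beside 16.3%. Within 30 kb all 6 had at least 1, beside 30.2%. The members lie close together and share sites, so these are not 6 independent counts.

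**Figure D2:**
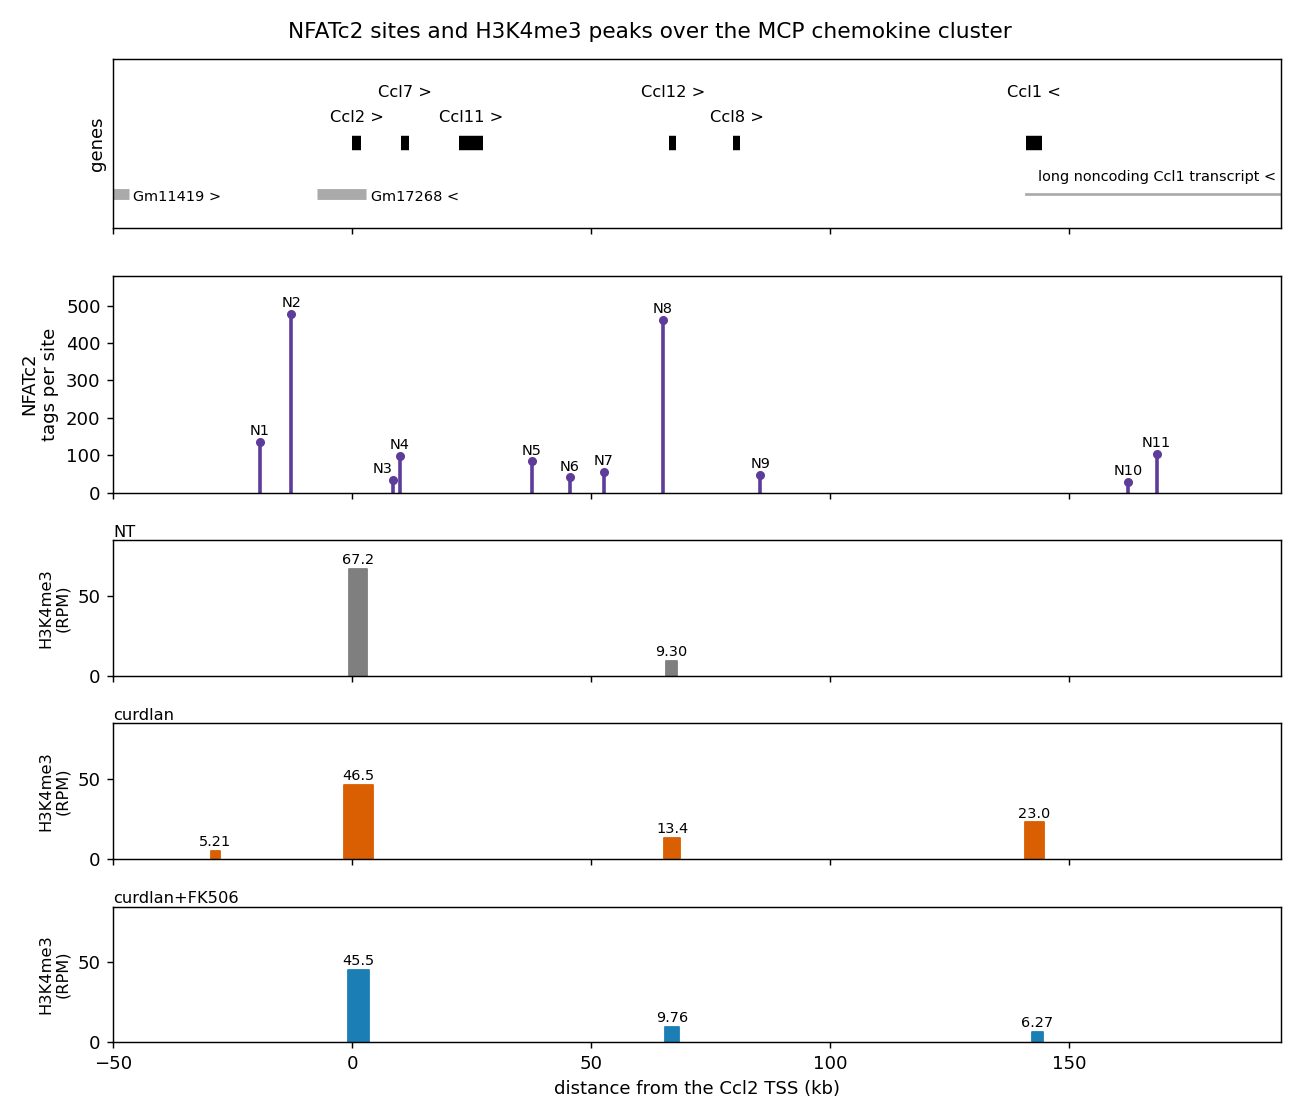
Map of the locus by distance from the Ccl2 start (kb), with genes on top, NFATc2 tags per site (N1 to N11) below, and H3K4me3 peaks of the 3 lists as blocks whose width is the peak and whose height is its RPM. N2 and N8 stand above the other sites, Ccl2 and Ccl12 are marked in all 3 lists, and the block at Ccl1 is present only in the curdlan lists, at 23.0 and 6.27 RPM.

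H3K4me3 marked some members and not others. A promoter was counted as marked where a peak overlapped the window within 1 kb of a transcript start. In NT cells 2 of 6 members were marked, Ccl2 and Ccl12, beside 48.9% of protein-coding genes. After curdlan 3 of 6 were marked, with Ccl1 added, beside 48.8%, and with FK506 the same 3 were marked, beside 48.7%. At a p-value limit of 1e-10 the count stayed 3 after curdlan but was 2 with FK506. The MACS p-value of the Ccl1 peak with FK506 was 3.9e-10. No share over all genes is given at that limit. Ccl7, Ccl11 and Ccl8 had no promoter peak in any list. Their starts lay 5.8 to 7.1 kb, 17.9 to 19.2 kb and 10.9 to 11.6 kb from the nearest peak of the 3 lists. A promoter without a peak had a signal under the calling threshold, which does not show that the mark was absent.

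Ccl7 combined an NFATc2 summit at its start with no H3K4me3 peak. Of the 1183 protein-coding genes with a summit within 1 kb, 7.44% had no promoter peak in any list, and 91.9% had one after curdlan. Of the 3644 with a summit within 10 kb, a set that holds Ccl8 too, it was 18.7%.

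No NFATc2 summit of the locus lay inside an H3K4me3 peak of any list, whereas 23.8%, 23.3% and 22.5% of all NFATc2 summits lay inside a peak of the NT, curdlan and curdlan with FK506 lists. N8 came closest. Its peak, chr11:81912787-81915826, overlapped the Ccl12 peak in all 3 lists, and its summit lay 568 bp outside it in NT cells, 156 bp after curdlan and 478 bp with FK506.

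Ccl2, which encodes the main monocyte attractant of the cluster, had the most H3K4me3 of the members in every list, in tags and per kb of peak. It had 1119 tags in NT cells, 991 after curdlan and 886 with FK506. In RPM this was 67.2 (63.3 to 71.2), 46.5 (43.7 to 49.5) and 45.5 (42.6 to 48.6). The NT value was above both curdlan values, whose counting intervals overlap each other. The log2 ratio of curdlan over NT was −0.53 (−0.65 to −0.40). This was at percentile 4.43 of the 12369 annotated genes, noncoding ones included, with a promoter peak in both lists. The median over them was −0.13, and centred on it the Ccl2 ratio was −0.40.

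The Ccl2 peak changed in width as well. Over all peaks the median length was 2371 bp in NT cells, 2575 bp after curdlan and 2493.5 bp with FK506. The curdlan library had the most tags of the 3, and an effect of depth on width was not tested. At Ccl2 the peak was 3751 bp long in NT cells, 6023 bp after curdlan and 4489 bp with FK506. The curdlan peak reached beyond the NT peak by 1006 bp on one side and 1266 bp on the other. RPM per kb was 17.9, 7.73 and 10.1. By this density the log2 ratio of curdlan over NT was −1.21 as measured and −1.03 centred on all genes. By fold enrichment it was −0.07 as measured and −0.80 centred. Curdlan over curdlan with FK506 was 0.03 (−0.10 to 0.16) by RPM but −0.39 by density and −0.77 by centred fold enrichment, so its direction depended on the measure.

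Ccl12, the mouse CCR2 ligand next to N8, was marked more weakly. It had 155 tags in NT cells, 285 after curdlan and 190 with FK506. In RPM this was 9.30 (7.90 to 10.9), 13.4 (11.9 to 15.0) and 9.76 (8.42 to 11.3). The curdlan value was the highest, and its interval lay above the other two, which overlap. The log2 ratio was 0.53 (0.24 to 0.82) over NT, at percentile 97.0, and 0.46 (0.19 to 0.73) over curdlan with FK506, at percentile 97.7 of 12364 genes.

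This difference at Ccl12 went with peak width. The peak was 2418 bp in NT cells, 3490 bp after curdlan and 2797 bp with FK506. The RPM per kb was 3.85, 3.84 and 3.49, so by density as measured the log2 ratio of curdlan over NT was 0.00. Centred on all genes it was 0.18. Fold enrichment gave 0.73 as measured and 0.00 centred, so the value depended on the centring. Over curdlan with FK506 the density ratio was 0.14 as measured, and the centred fold enrichment ratio was 0.18. The comparison of curdlan with FK506 against NT shares its libraries with those above. By RPM it gave −0.56 (−0.69 to −0.43) at Ccl2 and 0.07 (−0.24 to 0.38) at Ccl12, where the median over 12345 genes was −0.17. By fold enrichment the Ccl2 ratio was 0.42 as measured and −0.03 centred, so its direction depended on the measure. By centred RPM neither gene passed 2-fold, beside 0.915% of genes that were higher and 0.211% that were lower. Neither Ccl2 nor Ccl12, the 2 members marked in both lists, passed a 2-fold change between curdlan and NT by centred RPM, beside 1.33% of genes that were higher and 0.226% that were lower by this rule.

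Ccl1, a ligand of CCR8, had the largest ratio between conditions of the cluster by RPM. By other measures the order depended on the centring. Per kb, Ccl2 had a log2 ratio over NT of −1.21 as measured and −1.03 centred. Ccl1 had 1.17 and 1.15 over curdlan with FK506. By fold enrichment the largest ratio was at Ccl12 over NT as measured (0.73, beside 0.61 at Ccl1). Centred, it was at Ccl2 over NT (−0.80, beside 0.34 at Ccl1). In the NT list the peak nearest to the Ccl1 start was 76.2 kb away. After curdlan it had a peak of 489 tags, 23.0 RPM (21.0 to 25.1), with a MACS p-value of 4.2e-44, at chr11:81989944-81993791. With FK506 the peak had 122 tags, 6.27 RPM (5.20 to 7.48), and a p-value of 3.9e-10. The curdlan peak, 3848 bp long, covered the whole coding gene, and with FK506 it was 2359 bp long. Peaks weaker than that at Ccl1 with FK506 were called in NT cells, where 15.2% of all peaks had a lower RPM. Whether a peak of that size would have been called at Ccl1 in NT cells was not tested.

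Of the 11436 protein-coding genes without a promoter peak in NT cells, 0.953% had one after curdlan, 109 genes in all, and Ccl1 was the 1 such gene among the 4 unmarked members. It had a higher curdlan RPM than 87.2% of the 109, whose median was 4.13. With FK506, 57.8% of the 109 still had a peak. Neither member marked in NT cells lost its peak with curdlan, beside 1.18% of the 10944 genes marked in NT cells.

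Curdlan exceeded curdlan with FK506 at Ccl1 by 3.67-fold in RPM, a log2 ratio of 1.87 (1.59 to 2.17). The median over the 12364 genes with a peak in both lists was 0.04, and Ccl1 was at percentile 99.9. It was the 1 of the 3 marked members past 2-fold by the centred ratio, beside 0.461% of genes that were higher after curdlan alone. No member was lower by 2-fold, beside 0.17% of genes. By tags per kb the log2 ratio was 1.17. Fold enrichment was 17.1 after curdlan and 11.2 with FK506, a log2 ratio of 0.61 as measured and 0.34 centred, both under 2-fold. Among the 63 genes that gained a peak with curdlan and kept one with FK506, the median log2 ratio was 0.07, 96.8% were below Ccl1, and 9.52% were at 1 or above.

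**Figure D3:**
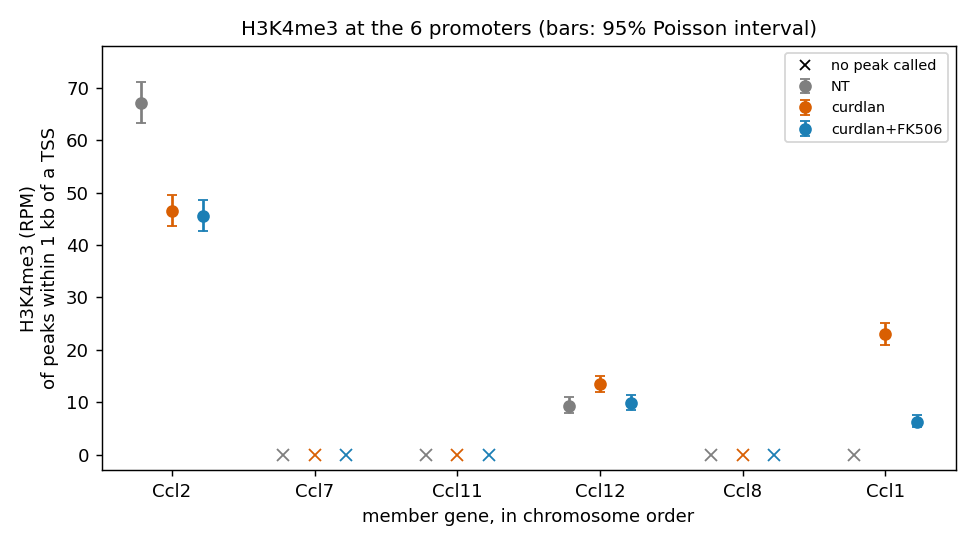
H3K4me3 RPM of promoter peaks for the 6 members in NT cells, after curdlan and after curdlan with FK506, with exact Poisson 95% intervals as bars and crosses where no peak was called. Ccl2 is highest in NT cells (67.2), Ccl12 highest with curdlan (13.4), and Ccl1 has a peak only in the curdlan lists (23.0 and 6.27).

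**Figure D4:**
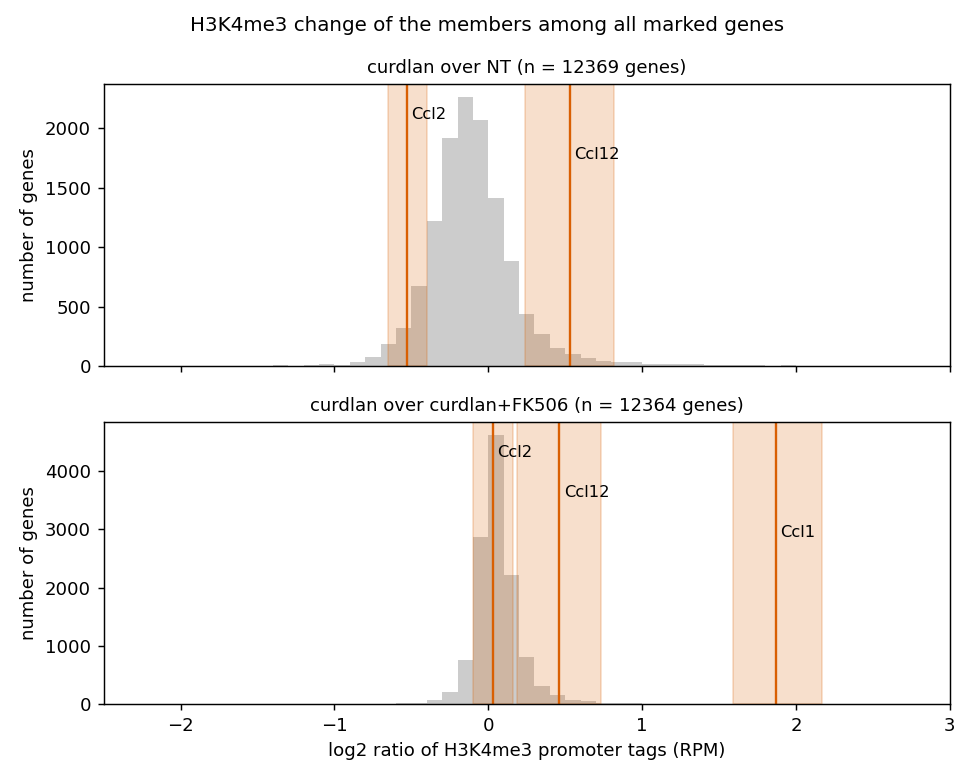
Distribution over genes of the log2 ratio of H3K4me3 promoter RPM, curdlan over NT (top) and curdlan over curdlan with FK506 (bottom), with lines for the members and shading for their 95% counting intervals. Ccl1, at 1.87, lies far to the right of the lower distribution, and Ccl2 and Ccl12 lie on opposite sides of the upper one, at −0.53 and 0.53.

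A further peak of the locus was seen only after curdlan. It lay at chr11:81819435-81821450, 28483 bp before the start of Ccl2 by its summit and 8251 bp from the summit of N1, with 111 tags, a p-value of 6.1e-07 and an FDR of 7.6%. Summed over the peaks of the span, H3K4me3 was 76.5 RPM in NT cells, 88.1 after curdlan and 61.5 with FK506. These peaks covered 6.2, 15.4 and 9.6 kb, so the mean was 12.4, 5.73 and 6.38 RPM per kb. The Ccl2 peak held 87.8%, 52.8% and 74.0% of the tags. The sum was thus highest after curdlan where the mean per kb was lowest.

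Promoters of the cluster were poor in CpG, a feature that the choice of members did not use. The ratio of observed to expected CpG within 500 bp of the start was 0.0855 at Ccl7, 0.0906 at Ccl8, 0.109 at Ccl12, 0.125 at Ccl11, 0.132 at Ccl2 and 0.204 at Ccl1. The median over 22342 protein-coding genes was 0.553, and the members lay at percentiles 5.18 to 22.4. Ccl1 was the highest of the 6, and the marked and unmarked members overlapped. Of the 5004 genes at or below the Ccl1 ratio, 9.11%, 9.03% and 9.01% had an H3K4me3 promoter peak in the NT, curdlan and curdlan with FK506 lists.

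TATAAA on the coding strand was found in the promoters of Ccl7, Ccl12 and Ccl8, 25 to 27 bp upstream of the start at its nearest base, beside 9.1% of all promoters of 300 bases. GGAAAA on either strand was found in the promoters of Ccl7 and Ccl1, beside 23.5%. In the Ccl1 promoter printed above, the 2 copies ended 110 and 80 bp before the start. The nearest NFATc2 summit, N10, lay 18111 bp from that start. The NF-kB consensus was found in the promoter of Ccl1 alone, beside 8.92% of promoters, and the AP-1 and PU.1 motifs in 0 of the 6, beside 4.33% and 3.13%.

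**Figure D5:**
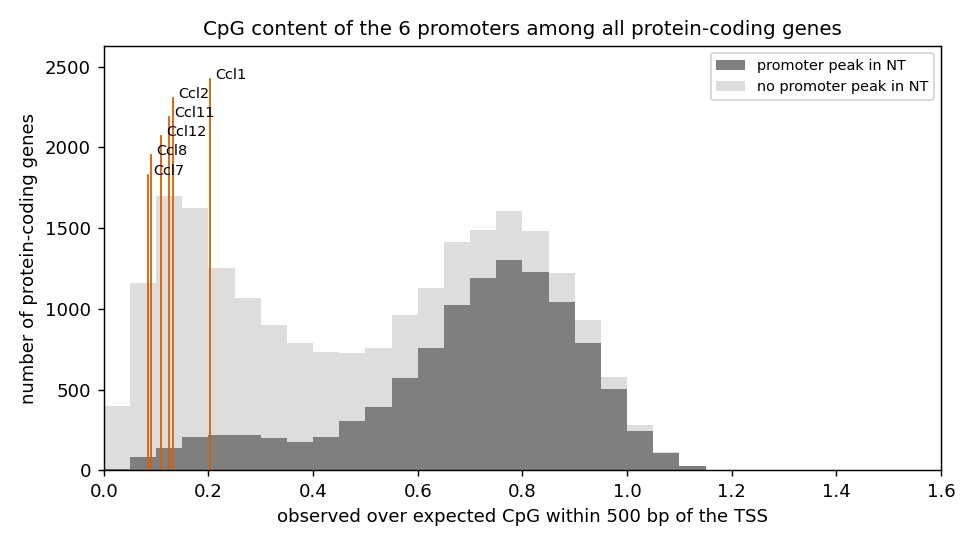
Number of protein-coding genes by the ratio of observed to expected CpG within 500 bp of the start, split by whether they had an H3K4me3 promoter peak in NT cells, with lines at the 6 members. All 6 lie at 0.204 or below, among genes of which few are marked.

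Among the receptor genes for these ligands, Ccr1 was marked in all 3 lists, with 1327, 1300 and 1281 tags, and had an NFATc2 summit 12 bp from its start. Ccr2, Ccr3 and Ccr8, the receptors of the ligands described above, had no promoter peak in any list, and neither did Ccr4, Darc and Ccbp2. Ccr3 had an NFATc2 summit of 63 tags 221 bp before its start.

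Of 14 other CC chemokine genes 13 were found in the annotation, and 6 of them were marked in each list, beside 48.9%, 48.8% and 48.7% of protein-coding genes. After curdlan 4 of these 6 (Ccl3, Ccl4, Ccl17 and Ccl22) were higher than in NT cells by 2-fold or more by centred RPM, beside 1.33% of genes. Between curdlan and curdlan with FK506, 0 of the 6 differed by 2-fold, beside 0.461% of genes that were higher after curdlan alone and 0.17% that were lower. Their median centred log2 ratio over NT was 1.54, where the median over all genes is 0 by construction. At Ccl3 and Ccl4 the nearest NFATc2 summits, of 400 and 491 tags, lay 80 and 156 bp before the start, and RPM was 10.7 in NT cells and 46.5 after curdlan at Ccl3, and 18.1 and 55.6 at Ccl4. In the MCP cluster the 2 sites with the most tags, N2 and N8, were 12718 and 1242 bp from a start.

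Among protein-coding genes, those whose promoter tags over the 3 H3K4me3 lists were most like those of Ccl1 were Il23a, Il1rn and Slc8a2, at distances of 0.61, 0.84 and 0.94 on the scale of log2(RPM + 1). Il23a had 0, 412 and 189 tags, beside 0, 489 and 122 at Ccl1. For Ccl2 they were Gm17268, which shares its peak, Rfc2 at 0.03 and Cdt1 at 0.06. These distances rest on 3 libraries.

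The 4 ChIP libraries had between 14377535 and 21289349 tags. Of 10 dendritic and myeloid marker genes 9 had an H3K4me3 promoter peak in each list, with Flt3 the exception. Of the 8 T cell, B cell and fibroblast markers 0 did, and of 2 epithelial markers Cdh1 did. Actb, an active reference promoter, was marked in each list, and Sox2, a silent one, in none.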

How the data were processed

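ChIP-seq peak lists of D1 cells were analysed, 1 per condition, and the members, gene lists, motifs and comparisons were chosen with earlier results of these data known. Per the labels, reads were aligned to mm9 by bowtie. The authors then ran MACS on each ChIP library with its own input (version 1.4.2 per the file headers), p-value threshold 1e-05. The deposited tag count of a peak is not normalized. The deposited p-value is a score, −log10 p multiplied by 10. The deposited fold enrichment is a ratio, tags over the local background, and the deposited FDR is in percent. ChIP tag totals in the file headers were 14377535 (NFATc2), 16662316 (H3K4me3 in NT cells), 21289349 (curdlan alone) and 19468498 (with FK506 added), and were the same before and after the limit of 1 tag at a position. The 4 input libraries were used only through these lists.

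From these lists, the summit was taken as the site of an NFATc2 peak. Tags of the H3K4me3 peaks that overlap the window within 1 kb of a transcript start were summed per gene and scaled to 1000000 ChIP tags (RPM). Ratios between lists were given as log2, with exact binomial 95% intervals conditional on the summed tags, and levels with exact Poisson 95% intervals. Both cover counting error only. Centred ratios had the median over all genes with a peak in both lists subtracted. Medians, percentiles and 2-fold shares over all genes with a peak in both lists drew on all 37310 annotated genes, noncoding ones included. Genes and sequences came from GENCODE M1 (Ensembl 65) and the NCBI build 37 genome, the assembly called mm9. Motifs were searched on both strands, except TATAAA. Genome windows started 3 Mb into each chromosome. The genes named were the members, the other genes of the span, receptors and other CC chemokine genes (values for Ccl3 and Ccl4 only), markers, reference genes, and the 3 genes nearest to each of the 2 members with the most curdlan tags. The result for 1 receptor gene is not reported here. Alternatives changed the p-value and FDR limits, the margin, the windows, the start used, the scaling and the motif window. The intervals and overlaps were tested on simulated data. Computation used scipy 1.17.1, numpy 2.4.6, pandas 2.3.3 and matplotlib 3.10.9 under Python 3.11.15.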

Additional observations from a re-analysis of the deposited data

How the results depend on the processing

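Of 89 alternative values for 17 results, 69 stayed near the value reported and 20 moved beyond its interval or by over 1.5 times. These covered the ratios of curdlan over NT and over curdlan with FK506, but not those of curdlan with FK506 over NT. Of the covered ratios whose interval excluded 0, that of curdlan over NT at Ccl12 came to 0.00 by centred fold enrichment and by tags per kb without centring. The others kept their sign. The ratio of curdlan over curdlan with FK506 at Ccl2, 0.03 with an interval that includes 0, changed sign under 3 alternatives, to −0.77 by centred fold enrichment, −0.39 by tags per kb and −0.01 by centred RPM. With peaks at a p-value of 1e-10 or less, NFATc2 summits fell from 11 to 5 and the H3K4me3 sum was 82.9 RPM with curdlan and 55.3 with FK506. By the score percentiles of N9 and N1, on either side of it, that limit removed between 45.4% and 57.5% of all NFATc2 peaks. The share of genome windows with as many summits is not given at this limit. With an FDR of 5% or less the curdlan sum was 82.9, as with a margin of 20 kb. Scaled to the tags in all peaks, in place of all ChIP tags, the sums were 132 for NT, 167 for curdlan and 120 with FK506. Within 1 kb, 1 member had a summit in place of 4 within 10 kb. The count within 10 kb was 3 at the p-value limit and 3 at the FDR limit, each without the share over all genes. GGAAAA was within 250 bp of 5 summits, a count given without the share over all sites at that distance. By centred fold enrichment the log2 ratio of curdlan over NT was −0.80 for Ccl2, and those over curdlan with FK506 were 0.18 for Ccl12 and 0.34 for Ccl1. By tags per kb they were −1.21, then 0.14 and 1.17. The first start of the long Ccl1 record in place of any start left 2 marked members in both curdlan lists. A span to the end of that record, chosen after seeing the data, gave 11 summits. The FDR limit removed N8 (7.69%), and the 19 NFATc2 peaks above 5% all had p-values of 1e-60 or less, so it removed strong peaks. The cause of these shifts was not tested. No paired analysis was possible because each condition had 1 ChIP library. The weakest H3K4me3 peaks held 18 to 26 tags, which limits what could be called at unmarked promoters.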
